A study of Mus musculus with 45 samples.

Results

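The insulin-like growth factor (IGF) genes described here were chosen by symbol and not by their values. They were 10 of the 24422 genes in the count table: the ligands Igf1 and Igf2, the receptors Igf1r and Igf2r, and the binding proteins Igfbp2, Igfbp3, Igfbp4, Igfbp5, Igfbp6 and Igfbp7. All 10 were found, and all 10 passed the filter on low counts in every comparison. Expression had been measured by STRT RNA-seq, which reads the 5′ ends of polyadenylated transcripts and counts molecules by their identifiers, in a whole piece of uterine horn, in endometrium scraped off the inner face of the horn, and in the muscular wall left behind (myometrium). The mice were 7 wildtype (WT) and 7 Plag1 knockout (Plag1KO, here KO) females of the outbred CD-1 strain, so that each of the 6 tissue and genotype groups held 7 mice, and each mouse gave all 3 tissues. Every mouse, WT and KO, was a sexually mature young female that had been superovulated with 5 IU of pregnant mare serum and, 2 days later, 5 IU of human chorionic gonadotropin, and was killed on the following day. The knockout is constitutive, so Plag1 was absent from the whole animal and not from the uterus alone, and the colony was kept by breeding heterozygotes. Plag1, which encodes a zinc finger transcription factor, had 0 or 1 count in each sample of either genotype, so its counts could not check the genotype labels.

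IGF1 and IGF2 are secreted growth factors that act through the tyrosine kinase receptor IGF1R, while IGF2R binds IGF2 and carries it to the lysosome. The IGF binding proteins hold the ligands in extracellular fluid and can limit or prolong their access to the receptor, and proteases such as PAPPA release the ligands again. In the uterus, stromal Igf1 is a known estrogen-responsive gene, and Igf2 is a known target of PLAG1.

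Total counts ranged from 264095 to 1232992 per library. Levels are given in CPM (counts scaled to a common total of gene counts), and a gene with 3 or fewer counts in a sample was treated as at the floor. The endometrium samples of WT mouse 3 and KO mouse 13 held much muscle: their summed levels of 4 smooth muscle genes were 7359 and 8082 CPM, against medians of 1411 CPM in WT and 581 CPM in KO endometrium and a lowest myometrium value of 8099 CPM. The endometrium of WT mouse 8 had 6120 CPM of the oviduct gene Ovgp1, whose median in WT endometrium was 72.0 CPM. Summed stromal fibroblast markers were higher in myometrium (medians of 5627 CPM in WT and 8564 CPM in KO) than in endometrium (1599 and 1724 CPM). The sum is weighted to its abundant matrix genes. Pdgfra, on the same list, had means of 49.1 CPM in WT endometrium and 47.0 CPM in WT myometrium, and 50.1 and 70.8 CPM in KO.

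Because the mice compared differ in a transcription factor, the PLAG1 consensus was searched on both strands from 250 bases before to 50 bases after each annotated start, in RefSeq sequences of GRCm38.p6. It was found in windows of 5 of the 10 genes (Igf2, Igf1r, Igf2r, Igfbp2 and Igfbp4) and in 5 of their 14 windows, against 19.2% of all 32851 windows and 21.2% of 27025 genes. The 250 bases before the start are shown for a ligand and the 2 receptors, with the matches in capitals. The Igf2 window (chr7:142657497-142657746, minus strand) has its match at -101 from the start, the Igf1r window (chr7:67952007-67952256, plus strand) has matches at -224 and -38, and the Igf2r window (chr17:12769707-12769956, minus strand) has its match at -37.
Igf2: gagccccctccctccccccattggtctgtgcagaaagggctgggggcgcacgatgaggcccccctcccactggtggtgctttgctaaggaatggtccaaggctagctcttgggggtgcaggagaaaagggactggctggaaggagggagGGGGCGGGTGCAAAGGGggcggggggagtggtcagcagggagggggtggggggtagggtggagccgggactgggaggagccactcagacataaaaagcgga
Igf1r: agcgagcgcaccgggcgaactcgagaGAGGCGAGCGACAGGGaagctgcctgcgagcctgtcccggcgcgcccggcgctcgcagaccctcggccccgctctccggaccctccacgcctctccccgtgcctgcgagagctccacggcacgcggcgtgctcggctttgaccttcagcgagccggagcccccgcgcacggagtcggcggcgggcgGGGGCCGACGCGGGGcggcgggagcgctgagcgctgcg
Igf2r: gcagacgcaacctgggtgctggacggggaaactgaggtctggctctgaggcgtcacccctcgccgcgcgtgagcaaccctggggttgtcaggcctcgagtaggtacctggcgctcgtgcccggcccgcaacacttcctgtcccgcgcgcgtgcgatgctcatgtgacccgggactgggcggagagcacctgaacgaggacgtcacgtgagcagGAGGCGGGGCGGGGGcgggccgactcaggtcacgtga
A match describes letters only and is not a measured binding site.

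The ligands differed in how well they were measured. Igf1 (chr10:87321010-87399792 of NCBIM37, plus strand) was counted in every sample. Its lowest, median and highest levels were 92.3, 135 and 216 CPM in WT horn and 68.2, 99.1 and 238 CPM in KO horn. In endometrium they were 55.5, 129 and 294 CPM in WT and 18.7, 52.7 and 198 CPM in KO. In myometrium they were 126, 207 and 288 CPM in WT and 132, 217 and 329 CPM in KO. KO endometrium held the lowest mean, at 80.3 ± 65.6 CPM, and KO myometrium the highest, at 218 ± 71.9 CPM (SD, n = 7). Igf2 (chr7:149836673-149852721, minus strand) was near the limit of detection outside myometrium. Its median was 10.8 CPM in WT and 9.54 CPM in KO myometrium, 4.57 and 2.32 CPM in horn, and 1.18 and 1.59 CPM in endometrium. Only 10 Igf2 molecules were counted in all 7 WT endometrium samples together, and 11 in all 7 KO endometrium samples. Igf2 shares its locus with Mir483 on the same strand and Igf2as on the opposite strand, and Igf1 overlaps Gm16176 on the opposite strand. The use of strand in counting was not stated, so reads of such partners could not be told apart.

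Both receptors were counted in every sample, and both were at the floor, with 3 counts, in the horn of KO mouse 11. Igf1r (chr7:75097713-75371484, plus strand) had lowest, median and highest levels of 26.0, 45.1 and 81.9 CPM in WT endometrium and 20.0, 39.4 and 54.4 CPM in KO endometrium. In myometrium they were 22.5, 46.9 and 86.2 CPM in WT and 30.4, 41.9 and 46.7 CPM in KO. The layers thus had like levels of Igf1r, while the whole horn was lower, at 11.6, 19.0 and 31.1 CPM in WT and 6.17, 20.2 and 29.1 CPM in KO. Igf2r (chr17:12875272-12962530, minus strand) overlaps Airn on the opposite strand. It ran from 7.72 to 27.3 CPM in WT endometrium, with a median of 17.0 CPM, and from 20.7 to 55.2 CPM in WT myometrium, with a median of 34.5 CPM. In KO it ran from 9.98 to 32.5 CPM in endometrium, with a median of 26.1 CPM, and from 21.7 to 72.5 CPM in myometrium, with a median of 38.4 CPM. Horn medians of Igf2r were 12.3 CPM in WT and 11.6 CPM in KO.

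Each binding protein had its own pattern over the tissues. Igfbp6 (chr15:101974793-101979942, plus strand), whose product prefers IGF2 over IGF1, had lowest, median and highest levels of 187, 387 and 948 CPM in WT endometrium and 159.7, 277 and 762 CPM in KO endometrium. In myometrium they were 568, 1059 and 1767 CPM in WT and 1019, 1382 and 1568.5 CPM in KO, and in horn 584, 981 and 1071 CPM in WT and 659, 746 and 1102 CPM in KO. The 2 layers of KO mice did not overlap, and those of WT mice did. How many of all genes had layers that stood apart was not counted. Igfbp5 (chr1:72904506-72921458, minus strand), the most conserved member of the family, ran from 65.0 to 168 CPM in WT endometrium (median 111 CPM) and from 61.1 to 551 CPM in KO endometrium (median 244 CPM). In myometrium it ran from 162 to 940.5 CPM in WT (median 325 CPM) and from 199.7 to 779 CPM in KO (median 433 CPM). In horn its medians were 157 CPM in WT and 82.3 CPM in KO, with a highest value of 613 CPM in KO mouse 14. The SD of Igfbp5 was largest in WT myometrium, at 268 CPM around a mean of 367 CPM, and in KO horn the SD of 229.5 CPM exceeded the mean of 206 CPM. Igfbp2 (chr1:72871077-72899048, plus strand), the neighbour of Igfbp5, was counted mostly in myometrium, with medians of 8.85 CPM in WT and 21.0 CPM in KO against 0 CPM in either endometrium. Of the 11 Igfbp2 molecules in KO endometrium, 10 came from mouse 13, whose sample held much muscle.

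Igfbp3 (chr11:7106089-7113926, minus strand), the main carrier of IGF1 in blood, had its highest group mean in WT endometrium, at 48.7 ± 45.4 CPM. Its lowest, median and highest levels were 8.27, 43.8 and 138 CPM in WT endometrium and 1.43, 14.4 and 54.4 CPM in KO endometrium. In myometrium its medians were 19.8 CPM in WT and 11.0 CPM in KO, and in horn 21.0 and 4.48 CPM. The groups overlapped widely. Igfbp4 (chr11:98902558-98913969, plus strand), a substrate of PAPPA, had group medians between 169 CPM in KO horn and 312 CPM in WT myometrium. Igfbp7 (chr5:77778265-77837070, minus strand), a relative with low affinity for IGFs, had medians of 194 and 198 CPM in WT and KO endometrium and of 324 and 439 CPM in WT and KO myometrium. Igfbp7 overlaps Polr2b on the opposite strand. For each of the 10 genes the 6 group means were put in order, and in 0 of 5 neighbouring pairs did the samples of the groups stand apart. The same was not counted over all genes, so this 0 only describes the 10 genes. Levels of different genes should not be ranked, since a 5′ tag count also depends on how each start is captured. In bulk tissue, fewer cells of a type and less RNA per cell cannot be told apart.

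**Figure D1:**
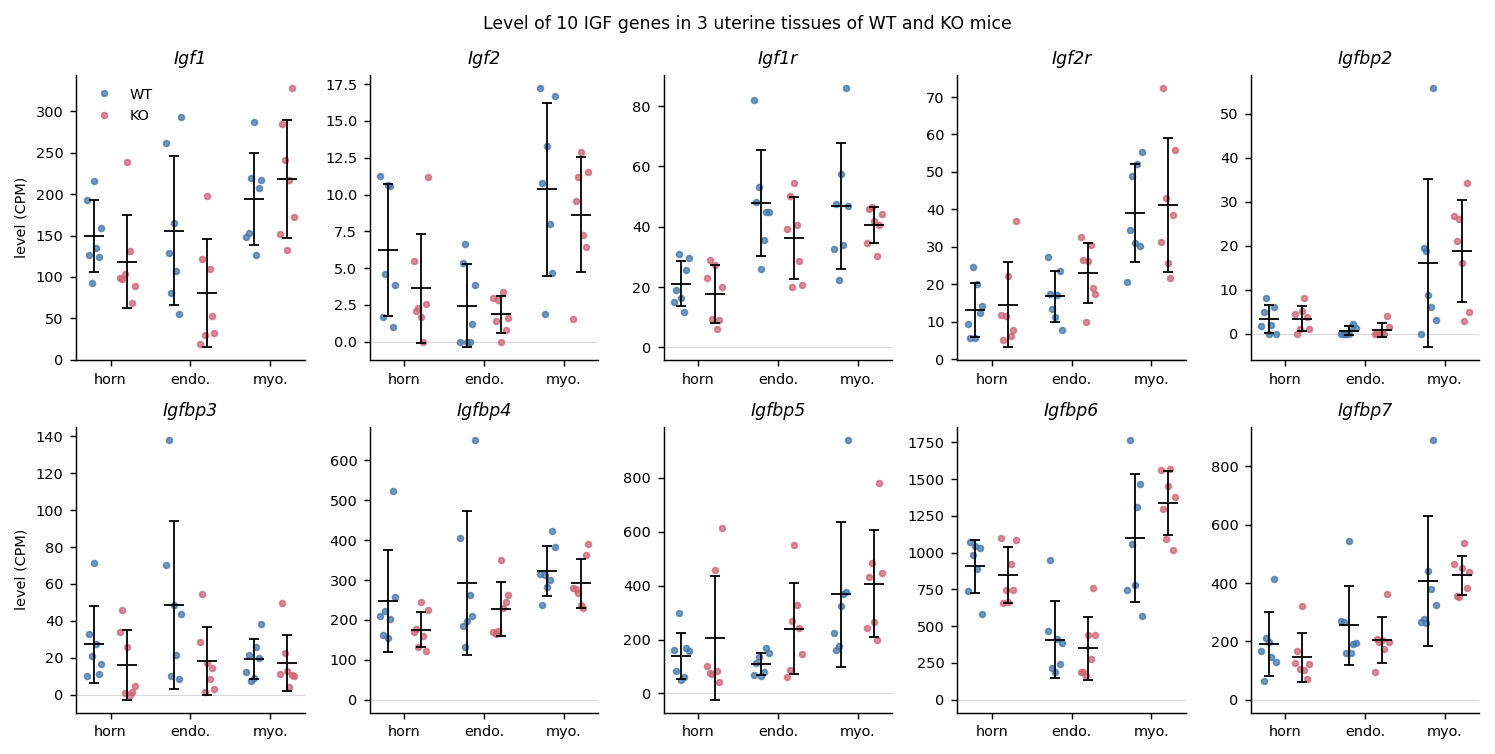
Level of each gene in CPM (vertical axis, a linear scale of its own in each panel) in whole horn, endometrium and myometrium. Points are mice, WT in blue and KO in red, and bars give the mean ± SD of 7 mice. Igfbp6 in KO endometrium, at 159.7 to 762 CPM, lies below KO myometrium, at 1019 to 1568.5 CPM, while WT and KO points overlap within every tissue.

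The layers of the wall were compared to ask where in the uterus each gene was expressed. In WT mice 5 of the 10 IGF genes were lower in endometrium than in myometrium and 0 were higher (edgeR quasi-likelihood test, Benjamini-Hochberg adjusted p under 0.05), where 13.2% of 13227 genes were called in either direction, 6.39% were lower and 6.81% higher. In KO mice 6 of 10 were lower and 0 higher, where 19.3% of 12969 genes were called, 8.71% lower and 10.6% higher. The filter on low counts asked for 1 CPM in 5 samples, which the endometrium alone did not meet for Igfbp2 in either genotype or for Igf2 in WT, so a difference between layers was built into their selection there. Without them, 3 of 8 genes were lower in WT and 5 of 9 in KO, with median log2 fold changes over these genes of -0.60 in WT and -0.87 in KO, against 0.01 and 0.08 over all genes tested. The summed markers of smooth muscle and stroma given above moved with these differences, though Pdgfra alone did not in WT. Their part in the differences was not tested.

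Igfbp6 was lower in endometrium than in myometrium of the same mouse in 7 of 7 WT and 7 of 7 KO mice. Its log2 fold change was -1.56 ± 0.33 in WT (SE, edgeR adjusted p = 0.00172) and -1.94 ± 0.30 in KO (adjusted p = 5.26e-05). The labels split the mice by plate row, with 5 WT and 3 KO mice in rows A to C and the other 2 WT and 4 KO mice in rows D to F. In rows A to C the difference of mean log2 CPM was -1.72 for WT and -2.83 for KO, and in rows D to F it was -1.53 and -1.65. Apart from repeat libraries, myometrium lay in rows B and E and endometrium in rows C and F. Layer and single plate row could therefore not be told apart in any layer comparison. Igfbp5 was lower in endometrium in 7 of 7 WT mice and 5 of 7 KO mice, with a log2 fold change of -1.79 ± 0.33 in WT (adjusted p = 0.000416) and -0.83 ± 0.35 in KO, which did not pass the test (adjusted p = 0.101). With the mouse as a block Igfbp5 also passed in KO (-0.99, adjusted p = 0.000744), and so it did without KO mouse 9 (-1.20, adjusted p = 0.0225).

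Igf2r, the clearance receptor of IGF2, was lower in endometrium, with a log2 fold change of -1.33 ± 0.33 in WT (adjusted p = 0.00608) and -0.87 ± 0.29 in KO (adjusted p = 0.0347). The KO call was lost without mouse 4, 6, 13 or 14 (adjusted p = 0.0835, 0.0993, 0.0554 and 0.116). Igf1 was lower in KO endometrium, in 6 of 7 mice, with a log2 fold change of -1.55 ± 0.35 (adjusted p = 0.00282), with within-row differences of -2.29 and -1.42. In WT mice its value was -0.44 ± 0.30 (adjusted p = 0.402). Igfbp7 was lower in endometrium of 7 of 7 KO mice, with a log2 fold change of -1.05 ± 0.24 (adjusted p = 0.00269). In WT it was -0.76 ± 0.32 (adjusted p = 0.128), which became a call with the mouse as a block (-0.79, adjusted p = 0.0223) and without WT mouse 7 (-1.13, adjusted p = 0.0209).

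Igf2 and Igfbp2 are best read as counts. In WT mice 46 Igf2 molecules were counted in myometrium and 10 in endometrium, a depth-corrected ratio of 4.43 (95% interval 2.21 to 9.85, for counting error only), and in KO mice 31 and 11, a ratio of 4.89 (2.39 to 10.8). Igf2 was lower in endometrium in 6 of 7 mice of each genotype. With no gene filter, the edgeR adjusted p of Igf2 was 0.0264 in WT and 0.00966 in KO. WT endometrium alone did not meet the filter for Igf2. The filtered test gave 0.0220 in WT and 0.00758 in KO, and its WT call was lost without mouse 1, 7, 8 or 12 (adjusted p = 0.0886, 0.0704, 0.0603 and 0.0660). Igfbp2 had 77 molecules in WT myometrium and 4 in WT endometrium, a ratio of 18.5 (6.96 to 69.8), and 68 and 11 in KO, a ratio of 10.7 (5.63 to 22.5). Since its endometrium alone did not meet the filter, the test of Igfbp2 is given with no gene filter, where the edgeR adjusted p was 0.000584 in WT and 0.000132 in KO. WT mouse 10 alone gave 48 of the 77 molecules, and the filtered KO log2 fold change moved from -3.58 to -5.25 without KO mouse 13.

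Igf1r, Igfbp3 and Igfbp4 were not called in either genotype. Igf1r had log2 fold changes of -0.14 ± 0.29 in WT and -0.22 ± 0.24 in KO (95% intervals -0.75 to 0.46 and -0.73 to 0.28), and Igfbp4 of -0.26 ± 0.28 and -0.39 ± 0.21. Igfbp3 had the only positive values, 1.23 ± 0.48 in WT (adjusted p = 0.0922) and 0.10 ± 0.53 in KO (adjusted p = 0.929), and its WT difference was positive (1.23) within rows A to C and -0.40 within rows D to F. The negative sign of Igf1r and Igfbp4 in KO turned when libraries were scaled by their spike-in RNA (0.30 and 0.03). That scaling moved the median of all genes to 0.21 in WT and 0.58 in KO (log2). It raised the share of calls that were higher in endometrium (WT from 51.6% to 67.3%, KO from 54.9% to 86.3%). It left 3 of 10 IGF genes called in each genotype, where 1417 of 13227 genes were called in WT and 3049 of 12969 in KO. The 3 were Igfbp2, Igfbp5 and Igfbp6 in WT, and Igf1, Igfbp2 and Igfbp6 in KO. Of these, Igfbp2 had met the filter through myometrium. Measured from those medians, Igfbp6 stood at -1.54 in WT and -1.99 in KO, and Igf2r at -1.35 and -0.93.

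**Figure D2:**
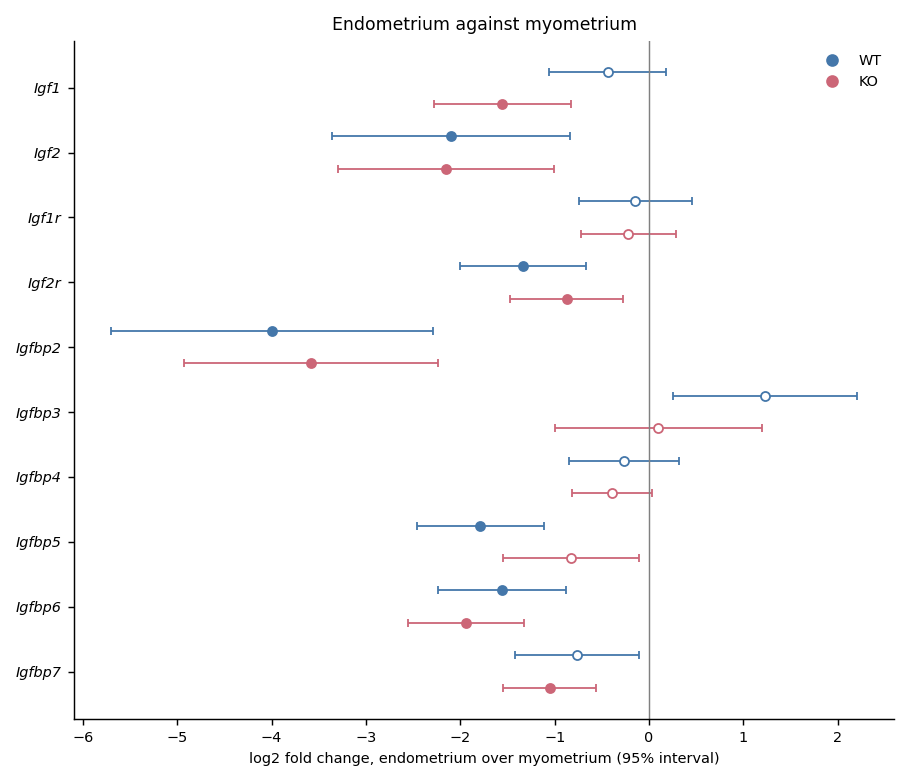
Log2 fold change of endometrium over myometrium for each gene (horizontal axis) with its 95% interval, WT in blue and KO in red, 7 mice each. Filled points had an adjusted p under 0.05 and open points did not. All filled points lie left of 0, and Igfbp3 in WT, at 1.23, is the point farthest to the right.

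KO was compared with WT to ask whether loss of Plag1 changed the IGF genes in any tissue. In horn, endometrium and myometrium, 0 of the 10 genes passed the test, where 0% of 12959, 13004 and 12991 genes were called. At an unadjusted p under 0.05, 0, 3 and 0 of the 10 genes were found, where 5.64%, 5.20% and 4.22% of all genes were found. DESeq2 also called 0 of the 10 in each tissue. The median log2 fold change over the 10 genes was -0.24 in horn, -0.24 in endometrium and 0.09 in myometrium, against -0.05, 0.02 and -0.03 over all genes.

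The 3 genes under an unadjusted 0.05 were in endometrium, and none passed after adjustment. Igfbp5 was above the highest WT level of 168 CPM in 4 of 7 KO mice, with a log2 fold change of 1.15 ± 0.37 (95% interval 0.39 to 1.91, unadjusted p = 0.00479 and adjusted p = 0.816 in edgeR). Its difference of mean log2 CPM was 0.55 within rows A to C and 0.80 within rows D to F, and with plate rows as a term the fold change was 0.87. Igfbp3 had a log2 fold change of -1.34 ± 0.58 (unadjusted p = 0.0314, adjusted p = 0.937 in edgeR), with 2 of 7 KO mice below the lowest WT level of 8.27 CPM. These 2 KO mice, 6 and 14, had 1 and 2 counts, at the floor. WT mouse 5 was at the floor too, with 3 counts (10.0 CPM). Igf1 had -0.93 ± 0.43 (unadjusted p = 0.0385, adjusted p = 0.937 in edgeR), with 4 of 7 KO mice below the lowest WT value of 55.5 CPM. Smooth muscle markers stood lower in KO than in WT endometrium by the medians given above, and their part in these values was not tested.

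Igf2, the known PLAG1 target, could be compared only in myometrium, where its log2 fold change was -0.26 ± 0.45 (95% interval -1.18 to 0.66, adjusted p = 1.00 in edgeR). Horn held 46 Igf2 molecules in WT and 23 in KO, from unequal depth, and 3 of 7 WT and 5 of 7 KO horns were at or under the floor of 3 counts, so no fold is given there. In the myometrium, the other genes with a PLAG1 consensus match had log2 fold changes of -0.20 ± 0.26 (Igf1r), 0.10 ± 0.28 (Igf2r), 0.14 ± 0.55 (Igfbp2) and -0.12 ± 0.18 (Igfbp4). Intervals were narrowest for Igfbp4 in myometrium (-0.48 to 0.24) and Igfbp6 in horn (-0.43 to 0.36). In myometrium that of Igfbp6 was -0.14 to 0.71. Igfbp5 in horn had a fold change of 0.58 ± 0.47 that fell to -0.01 without KO mouse 14. Directions differed between plate rows for many genes: the sign was shared by both row sets for 4 of 10 genes in horn, 6 in endometrium and 3 in myometrium.

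**Figure D3:**
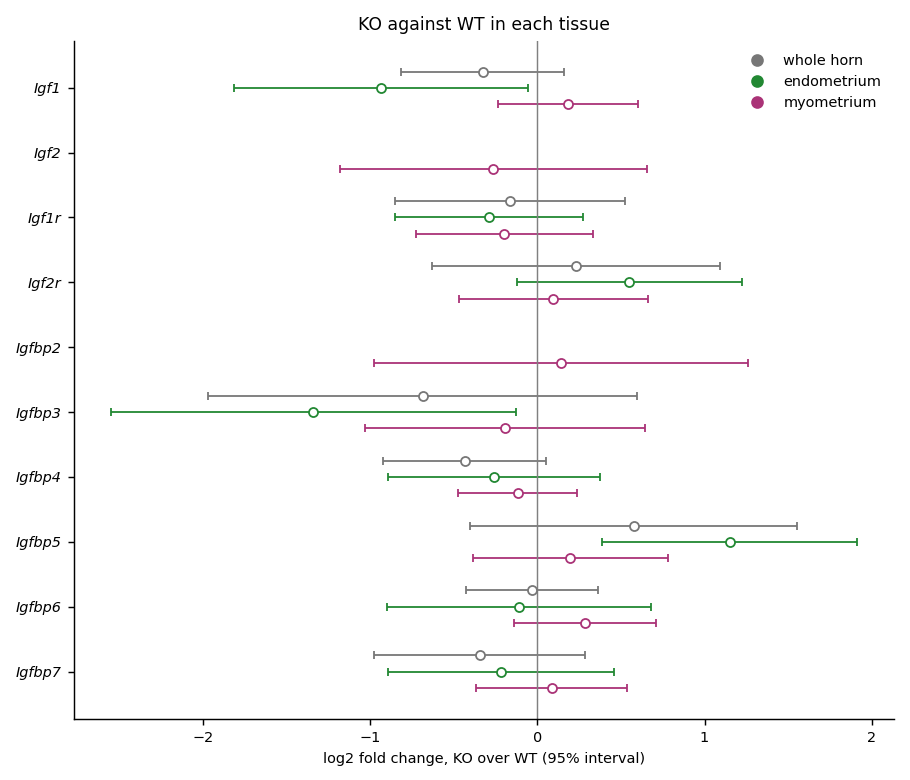
Log2 fold change of KO over WT for each gene (horizontal axis) with its 95% interval in whole horn (grey), endometrium (green) and myometrium (purple), 7 mice per genotype. Every point is open, since 0 had an adjusted p under 0.05. Igf2 and Igfbp2 have a point in myometrium only, and the largest value is Igfbp5 in endometrium, at 1.15.

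The difference between layers was then compared between genotypes. In the genotype by layer interaction 0 of the 10 genes passed (0% of 14314 genes were called), and 1 of 10, Igf1, had an unadjusted p under 0.05, where 4.60% of genes did. DESeq2 also called 0 of the 10. The Igf1 value was -1.11 ± 0.48 (unadjusted p = 0.0266, adjusted p = 0.993 in edgeR), so the layer call of Igf1 in KO and not in WT was not shown to differ between genotypes. The same held for Igfbp5, at 0.95 ± 0.51 (adjusted p = 0.993), and Igfbp7, at -0.29 ± 0.42 (adjusted p = 0.998).

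The endometrium samples differed in their levels of muscle and epithelial markers, and the genes above the floor were set against a score made from both. The layer score of a sample is the mean log2 level of 4 epithelial genes minus that of 4 smooth muscle genes, and it lay between -3.86 and 1.88 for WT endometrium and between -3.16 and 3.56 for KO endometrium. Over the 14 mice Igfbp6 fell as the score rose, with Pearson's r = -0.85 (permutation p = 0.00018) and Spearman's rho = -0.72 (permutation p = 0.00509), but it did not pass after adjustment over 14822 genes (adjusted p = 0.0702), of which 0.189% passed. Without WT mouse 3 and KO mouse 13, the samples farthest from the median score, r was -0.63 (permutation p = 0.0278). It was -0.93 within rows A to C (n = 8, exact permutation p = 0.00117), -0.76 within rows D to F (n = 6, exact permutation p = 0.0722), -0.96 in WT and -0.84 in KO. In all, 8 members above the floor were set against the score, and 2 of them, Igfbp6 and Igfbp3, had an unadjusted permutation p under 0.05, where 6.51% of genes did. Igfbp3 had r = -0.58 (permutation p = 0.0278, adjusted p = 0.669), rho = -0.56 (permutation p = 0.0371) and r = -0.54 without the 2 farthest samples (permutation p = 0.0705). For the other 6, r lay between -0.41 (Igf1) and 0.17 (Igfbp5), and these values moved without the 2 farthest samples. Igf1 then had r = -0.64 (unadjusted permutation p = 0.0240) and Igfbp4 went from -0.34 to -0.62 (unadjusted permutation p = 0.0311), while Igfbp7 went from -0.40 to -0.15, Igfbp5 to 0.43 and Igf2r from 0.06 to 0.14.

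**Figure D4:**
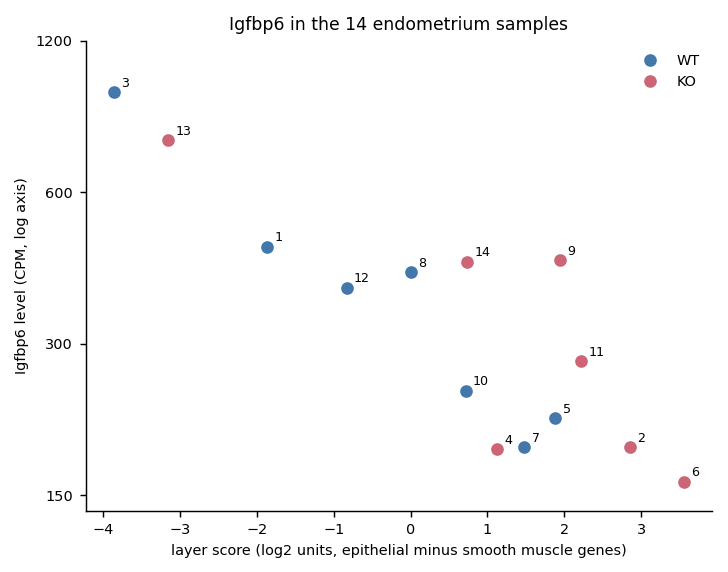
Igfbp6 level in CPM (vertical axis, logarithmic) against the layer score in log2 units (horizontal axis, epithelial minus smooth muscle genes) in the endometrium of 7 WT (blue) and 7 KO (red) mice, labelled by mouse number. WT mouse 3 and KO mouse 13, with the lowest scores, have the highest levels, 948 and 762 CPM.

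The genes most like each member in level were found over the 42 mouse and tissue samples, among 2868 genes with a mean log2 CPM of 5 or more. These samples share mice and tissues, and the correlations are descriptions. Igfbp6 followed genes of the contractile apparatus closely, Tpm1 (r = 0.95), Tpm2 (0.94) and Actg2 (0.94), and the same 3 genes led after each tissue's mean was subtracted (0.83, 0.79 and 0.80). Igf1 was most like the fibrillar collagen gene Col3a1 (0.75), Rgs2 (0.73) and Efemp1 (0.72), and Igfbp5 was most like Antxr2 (0.78), the mural cell receptor gene Pdgfrb (0.73) and Cpe (0.70). Igfbp7 was most like the matrix genes Ltbp4 (0.67) and Fbn1 (0.65), and then Palld (0.65). Igfbp4 was most like Id3 (0.69), Lsp1 (0.60) and Fn1 (0.59), and Igf1r most like Pnisr (0.78), Ncor1 (0.78) and Ptov1 (0.75).

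Whole horn holds both layers, yet Igf1r was lower in the horn than in either layer of the same mouse in 13 of 14 mice. This pattern is by CPM and was chosen after the values were seen. Of 14822 genes, 0.439% were below both layers in at least as many mice. In a fit of all 6 groups the horn minus the mean of the layers was -0.95 ± 0.25 (log2) in WT (edgeR adjusted p = 0.0314, where 2.19% of genes were called) and -0.86 ± 0.26 in KO (adjusted p = 0.0523, where 2.78% were called). Igf2r was below both layers in 9 mice, where 10.7% of genes were so in at least as many. Its values were -0.78 ± 0.31 in WT (edgeR adjusted p = 0.144) and -0.85 ± 0.30 in KO (adjusted p = 0.108). Igfbp4 and Igfbp7 were below both layers in 10 mice each, where 6.38% of genes were so in at least as many. Igfbp6 was below both in 1 mouse. The fit of all 6 groups had no term for the mouse, although each mouse gave all 3 tissues, and no fit with such a term was run. Horn lay in rows A and D, so tissue and single plate row could not be told apart here either.

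**Figure D5:**
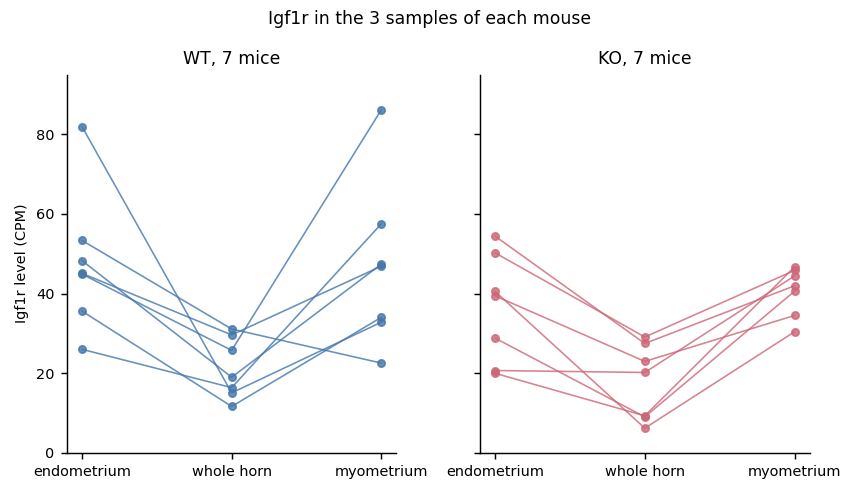
Igf1r level in CPM (vertical axis) in the endometrium, whole horn and myometrium of each mouse, with lines joining the samples of a mouse, WT on the left and KO on the right. The horn is the lowest of the 3 samples in 13 of 14 mice.

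Other genes of IGF signalling were counted in 4 lists: extracellular modulators, receptors and adaptors, the PI3K to FOXO arm and the RAS to ERK arm. KO against WT called 0 genes in every list and tissue. In the WT layer comparison, 2 of 51 tested genes were higher in endometrium and 3 lower, and in KO 1 was higher and 9 lower. With 13.2% and 19.3% of all genes called in either direction in WT and KO, these 5 and 10 of 51 were not above the share over all genes in WT and close to it in KO. The median log2 fold change over the 51 genes was -0.39 in WT and -0.22 in KO, against 0.01 and 0.08 over all genes. Of 6 tested modulators, 2 were lower in each genotype: the serine protease gene Htra3, with log2 fold changes of -1.08 ± 0.31 in WT and -1.42 ± 0.23 in KO (edgeR adjusted p = 0.0193 and 0.00012), and Pappa, the protease that cleaves IGFBP4. Pappa had 54 molecules in WT myometrium and 8 in WT endometrium, and 53 and 12 in KO (edgeR adjusted p = 0.00111 in WT). Pappa was at or under the floor of 3 counts in 7 of 7 WT and 6 of 7 KO endometrium samples. In KO its endometrium alone did not meet the filter, and no p is given there. Of 12 receptors and adaptors, Ptpn1, a phosphatase that acts on the insulin receptor, was higher in WT endometrium (log2 fold change 1.24 ± 0.30, adjusted p = 0.00497), with -0.37 ± 0.30 in KO (adjusted p = 0.434). Irs1, an adaptor, was lower in KO endometrium (-1.32 ± 0.45, adjusted p = 0.0396), with a like value in WT that was not called (-1.19 ± 0.49, adjusted p = 0.121). In the genotype by layer interaction 0 of 52 listed genes passed and 2 had an unadjusted p under 0.05 in edgeR, where 4.60% of all genes did, with Ptpn1 at -1.60 ± 0.43 (unadjusted p = 0.000592, adjusted p = 0.970). The PI3K to FOXO arm had 0 of 21 called in WT and 4 of 21 lower in KO, where 8.71% of all genes were lower, and a difference between genotypes was not shown. Among the 4 was Rictor, a subunit of an mTOR complex, with 7 molecules in KO endometrium and 22 in KO myometrium, and it met the filter through myometrium. In the RAS to ERK arm, of 12 genes, the kinase gene Rps6ka1 was higher in endometrium, with log2 fold changes of 2.20 ± 0.50 in WT and 1.60 ± 0.37 in KO (adjusted p = 0.00356 and 0.00315), and Elk1, an ERK target, was lower, at -1.23 ± 0.42 and -1.55 ± 0.36 (adjusted p = 0.0477 and 0.00333). Rps6ka1 was at or under the floor in 4 of 7 WT and 3 of 7 KO myometrium samples. Elk1 was so in 2 of 7 WT and 4 of 7 KO endometrium samples, so the sizes of these folds are uncertain. The 4 lists were fitted with TMM factors only, and the direction of their calls under other scalings was not computed.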

How the data were processed

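The authors deposited raw counts of molecules per gene, with 92 ERCC spike-ins, in 45 libraries. Per the labels and the study's methods, reads were demultiplexed, joined by molecular identifier, trimmed, aligned with TopHat to mm9 and counted over UCSC gene models. Handling of multiply aligned reads was not stated. Library groups came from the labels. Repeat libraries (3 of KO mouse 13 endometrium and 2 of WT mouse 12 myometrium) were summed, so that each mouse counted once. By the wells in the labels, mice numbered up to 8 lay in rows A to C of the plate and those from 9 up in rows D to F. Within each set of rows every tissue had a row of its own, apart from repeat libraries.

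The gene filter asked for 1 CPM or more in 5 or more samples, and the test was that of edgeR 4.0.16 (TMM factors, quasi-likelihood F test) in R 4.3.3, without covariates, with Benjamini-Hochberg adjustment over all genes. The SE is the absolute log2 fold change over the root of F. Log2 CPM used a prior count of 2. The layer score relation was tested by 100000 two-sided permutations. Adjustment over all genes replaced the planned adjustment over the members. Ratios of pooled counts are exact 95% intervals. Alternatives were DESeq2 1.42.0, other scalings and filters, 1 library per mouse, a fit of all groups, plate rows, a mouse block and leaving out each mouse. No fold is given between genotypes where over 3 of 7 mice of a group had 3 or fewer counts. The fits were tested on simulated counts.

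Pairing by mouse comes from the labels. Deviations from group means of a mouse's endometrium and myometrium correlated at 0.113 to 0.430 in KO and 0.0994 to 0.336 in WT over 2869 genes, and were highest with the own mouse in 7 of 7 KO and 3 of 7 WT mice.

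All 10 genes and Plag1 were always named, pathway genes by the largest called changes (up to 3 in each direction), and Irs1 and the modulators by their counts. A pathway gene that this rule names is not reported here. The members and lists were chosen with earlier results of these data known. Coordinates are NCBIM37 (GENCODE M1). All 10 symbols matched RefSeq promoter windows.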

Additional observations from a re-analysis of the deposited data

Results flagged for a closer look

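Each gene's 7 mice were examined in each of the 6 groups for a mouse far from the rest on the log2 CPM scale. Of 60 gene and group combinations 2 stood out, fewer than the 5% that chance gives, and both were WT mouse 10. Igfbp4 in its whole horn was at 9.12 (log2 CPM; 524 CPM), with the next horn at 8.08. Igfbp7 in its myometrium was at 9.81 (891 CPM), with the next myometrium at 8.65.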

How the results depend on the processing

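Counts of IGF genes called kept within 1.5 times of the value reported under every setting run, except that spike-in scaling left 3 of 10 in each genotype of the layer comparison and a filter at 10 CPM left 3 in WT, where Igf2 and Igfbp2 were no longer tested. Leaving out each mouse gave 4 to 5 calls in WT layers and 5 to 7 in KO layers, and a fit of all 6 groups lost Igf2r in KO (adjusted p = 0.0584). Under the pairing, a replicate block for the mouse, calls numbered 6 in WT and 7 in KO, the interaction called 10 genes in all and 0 of the IGF genes, and the block changed no call of an IGF gene beyond Igfbp7 and Igfbp5. Over all genes, KO against WT called 7 in horn with DESeq2, 1 in endometrium with DESeq2 and 7 in a fit of all 6 groups, and in myometrium 1 with spike-in scaling and 3 with no gene filter, and leaving out each mouse gave 0 to 1 in horn and in myometrium. WT layers gave 1158 to 1825 genes, the fewest without WT mouse 10. The cause of these changes was not tested.

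The sign of values that were not called turned in places. With spike-in scaling, KO against WT was -0.0593 for Igf2r in horn, 0.0298 for Igf1r, 0.0992 for Igfbp6 and 0.0811 for Igfbp7 in endometrium, and -0.0321 for Igfbp2 and -0.0709 for Igfbp7 in myometrium. The KO layers gave 0.30 for Igf1r and 0.0331 for Igfbp4, and the interaction 0.34 for Igf1r, 0.0591 for Igfbp4 and 0.15 for Igfbp7. That scaling moved the median of all genes to -0.37 in horn, 0.27 in endometrium and 0.35 in the interaction. Igfbp6 in horn was 0.00451 with DESeq2, 0.00452 with relative log expression factors, and 0.00751 with plate rows, which gave -0.0137 for Igfbp7 in myometrium. Igfbp3 in KO layers was -0.00662 at 10 CPM and -0.0105 with the mouse block, which gave 0.0124 for Igfbp4 in the interaction. Leaving out each mouse, KO against WT ranged in horn from -0.18 to 0.42 (Igf2r), -0.00969 to 0.82 (Igfbp5) and -0.10 to 0.0624 (Igfbp6). In endometrium it ranged from -0.40 to 0.0976 (Igfbp4), -0.45 to 0.30 (Igfbp6) and -0.44 to 0.15 (Igfbp7). In myometrium it ranged from -0.28 to 0.0590 (Igf1r), -0.0515 to 0.24 (Igf2r), -0.0719 to 1.06 (Igfbp2), -0.68 to 0.0637 (Igfbp3) and -0.0156 to 0.58 (Igfbp5). The layers ranged from -0.29 to 0.0941 for Igf1r in WT and from -0.17 to 0.37 for Igfbp3 in KO, and the interaction from -0.29 to 0.0837 (Igf1r), -0.30 to 0.23 (Igfbp4) and -0.65 to 0.0498 (Igfbp7).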

Other observations

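Repeat libraries of a sample give a view of technical spread. In the 3 endometrium libraries of KO mouse 13, the highest over the lowest level was 1.13 for Igfbp6 (728 to 824 CPM), 1.24 for Igfbp5 and 1.41 for Igf1, and 2.36 for Igfbp7 (188 to 443 CPM). In the 2 myometrium libraries of WT mouse 12 it was 1.03 for Igf1, 1.05 for Igfbp6 and 1.40 for Igfbp5 (790 to 1103 CPM).

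Among the 6 IGF genes with a mean log2 CPM of 5 or more, the pair most alike over the 42 samples was Igfbp4 and Igfbp7 (r = 0.51, and 0.35 with tissue means subtracted), and Igf1 and Igfbp6 went from 0.49 to 0.05 when tissue means were subtracted. The CArG box, a motif of smooth muscle promoters searched after the likeness of Igfbp6 to muscle genes was seen, was found in 1 of 14 windows of the 10 genes, an Igf2 window, and in 1.63% of all windows.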
